A study of Arabidopsis thaliana with 54 samples.

Results

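At Zeitgeber time 16 (ZT16, 16 h after lights on), long-day seedlings of Arabidopsis thaliana were at the end of their light period and equinox-day seedlings had been in the dark for 4 h. The comparison of these 2 groups rests on 6 of the 54 small RNA libraries of the study, replicates A, B and C of each group, chosen by their labelled photoperiod and hour. It is the only sampled hour at which long day and equinox day differed in light. All 6 libraries came from whole seedlings of the Columbia 0 genotype, roots included, which had been stratified for 48 h and then grown for 10 days under 12 h of light and 12 h of dark. On day 11 the long-day seedlings went to 16 h of light and 8 h of dark, the equinox-day seedlings stayed in the starting photoperiod, and both were harvested on day 13. The long-day group had therefore changed photoperiod as well as being in light, and in the comparison at this hour alone these cannot be told apart. The labels name 3 replicates per group and do not say whether these are separate cultures, and a p-value here covers only the spread between such libraries. In whole seedlings, less of a small RNA per cell and fewer cells that hold it cannot be told apart.

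Plant microRNAs are cut by DICER-LIKE1 from hairpin transcripts as a duplex of a 5p and a 3p arm. Usually one arm, the guide, is loaded into ARGONAUTE1 and directs the slicing of matching messenger RNAs, while the other arm, the star strand, is degraded. Arms are compared here as the more and the less abundant over all 54 libraries, which need not be guide and star. Conserved plant families act on transcription factors of growth phase, leaf polarity and organ size, and others on the small RNA machinery itself or on nutrient genes.

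The 7 microRNAs that differed past the threshold are given as sequences, 5′ to 3′, because 4 of them are the less abundant arm of their hairpin, followed by the more abundant arms of these 4 hairpins and both arms of miR396b. Capitals mark the seed, bases 2 to 8. Sequences are from RefSeq (TAIR10.1), in which each of the 193 mature names behind the tested features was found.
miR158a-5p: cUUUGUCUacaauuuuggaaa
miR158a-3p: uCCCAAAUguagacaaagca
miR165a-5p: gGAAUGUUgucuggaucgagg
miR165a-3p: uCGGACCAggcuucauccccc
miR159b-5p: gAGCUCCUugaaguucaaugg
miR159b-3p: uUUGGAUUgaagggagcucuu
miR168a-3p: cCCGCCUUgcaucaacugaau
miR168a-5p: uCGCUUGGugcaggucgggaa
miR396b-3p: gCUCAAGAaagcugugggaaa
miR396b-5p: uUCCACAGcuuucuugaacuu
miR779.2: uGAUUGGAaauuucguugacu
miR829-5p: aCUUUGAAgcuuugauuugaa
miR5634: aGGGACUUugugaauuuaggg
The 7 features that passed had 7 different seeds and were all 21 nucleotides long, as were 112 of the 149 tested. Of the 7, 1 (miR779.2) starts with U, the base that ARGONAUTE1 is known to favour, against 84 of all 149 tested microRNA features (56.4%). Where both arms of a hairpin were tested, 14 of 41 less abundant features start with U and 22 of 35 more abundant ones. As 4 of the 7 are less abundant arms, the 56.4% is not a like comparison. The annotation places miR5634 opposite an exon of the protein-coding gene AT4G30750, so without knowing how strand was counted its reads cannot be told from antisense or exon fragments. MIR165a lies opposite to, and outside the exons of, AT1G08765, and no other gene overlaps the other 5.

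The 6 libraries held 13.7 to 18.4 M counts, of which 1 entry named genome took 79.6% to 82.6% in long day and 86.6% to 90.5% in equinox day. The groups did not overlap in this share, with a difference of -7.11 percentage points (two-sided exact permutation p = 0.1, the smallest that 3 against 3 allows). Without that entry, 2.69 to 3.48 M counts remained per long-day library and 1.52 to 2.46 M per equinox-day library, so a level of 1 CPM (1 count in a library scaled to 1 M) stood for about 1.84 to 2.76 counts. MicroRNAs took 8.62% ± 2.14 of these in long day and 11.0% ± 1.70 in equinox day (SD, n = 3 each), ranges that overlapped (exact permutation p = 0.3). The TMM scaling factors were 0.773 to 0.880 in long day and 1.08 to 1.21 in equinox day, and also did not overlap. Of 286 microRNA features in the table, 149 were abundant enough to test. Of the other 137, 89 had a count in the 6 libraries, at most 15, and 48 had none, which allows up to 0.209 CPM over the 6 libraries (3 counts, for counting error only).

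Of the 149 tested, 6 were higher and 1 lower in long day, which is 4.7%, where 15.9% of all 8869 tested features (7.63% higher and 8.25% lower) passed the threshold of 0.05 on the adjusted p (quasi-likelihood test of edgeR, adjusted by Benjamini-Hochberg). Without TMM factors the split of microRNAs was 3 higher and 10 lower. The difference between the 4.7% and the 15.9% was not tested. The median log2 fold change was 0.08 over microRNAs and -0.09 over all features. The libraries of the 2 groups did not overlap for 27 microRNAs (18.1%), against 42.3% of all tested features.

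miR158a-5p, the less abundant arm of a microRNA of the Brassicaceae, was the most abundant of the 7. It stood at 5195, 3835 and 3222 CPM in the long-day libraries A, B and C and at 970.2, 1090.0 and 1506 CPM in those of equinox day. Every long-day library was above every equinox-day library. The log2 fold change was 1.78 ± 0.37 (SE; edgeR adjusted p = 0.00171). For miR779.2, a microRNA known from Arabidopsis, the long-day libraries lay close together at 42.2, 41.0 and 41.0 CPM. The equinox-day libraries held 9.23, 9.68 and 13.9 CPM, all far below them, for a log2 fold change of 1.91 ± 0.40 (edgeR adjusted p = 0.00184).

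miR165a-5p is the partner of miR165a-3p, which targets the HD-ZIP III transcripts of leaf polarity. It held 583, 571 and 762 CPM in long day and 232, 240.1 and 342 CPM in equinox day. The groups were clear of each other, with a log2 fold change of 1.23 ± 0.33 (edgeR adjusted p = 0.00924), a call lost without long day replicate C (adjusted p = 0.0682). miR159b-5p, the partner of the MYB-targeting miR159b-3p, held 30.6, 36.6 and 30.9 CPM against 8.69, 10.6 and 15.8 CPM, again with no overlap. Its log2 fold change was 1.47 ± 0.49 (edgeR adjusted p = 0.0341).

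miR829-5p held 81.5, 76.1 and 84.5 CPM in long day and 36.9, 34.4 and 50.9 CPM in equinox day, without overlap. Its log2 fold change was 0.98 ± 0.34 (edgeR adjusted p = 0.0406). The other tested forms of the hairpin, miR829-3p.1 (1.23 ± 0.65, edgeR adjusted p = 0.198) and miR829-3p.2 (0.54 ± 0.65, edgeR adjusted p = 0.624), were rare, with overlapping libraries. miR168a-3p, whose partner miR168a-5p targets AGO1 in the feedback on the small RNA pathway, held 189, 177 and 234 CPM against 91.2, 89.1 and 129.6 CPM. No library overlapped, and the log2 fold change was 0.95 ± 0.34 (edgeR adjusted p = 0.0452). The calls of miR159b-5p, miR829-5p and miR168a-3p were each lost when any 1 of the 6 libraries was left out (adjusted p from 0.0514 to 0.204), while their direction held.

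miR5634 was the only microRNA that passed on the lower side, and it was rare. It had 4, 1 and 1 counts in the long-day libraries (1.51, 0.362 and 0.423 CPM) and 8, 6 and 23 counts in equinox day (4.34, 2.90 and 8.67 CPM). The groups did not overlap, and replicate C of equinox day was the highest. Summed over the libraries, 6 counts stood against 37, an equinox-day level 7.31-fold the long-day level with a 95% exact binomial interval of 3.06 to 21.2, for counting error only. The fitted log2 fold change was -2.73 ± 0.72 (edgeR adjusted p = 0.00888), and the call was lost without long day replicate B or equinox day replicate C (highest adjusted p 0.0923).

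**Figure D1:**
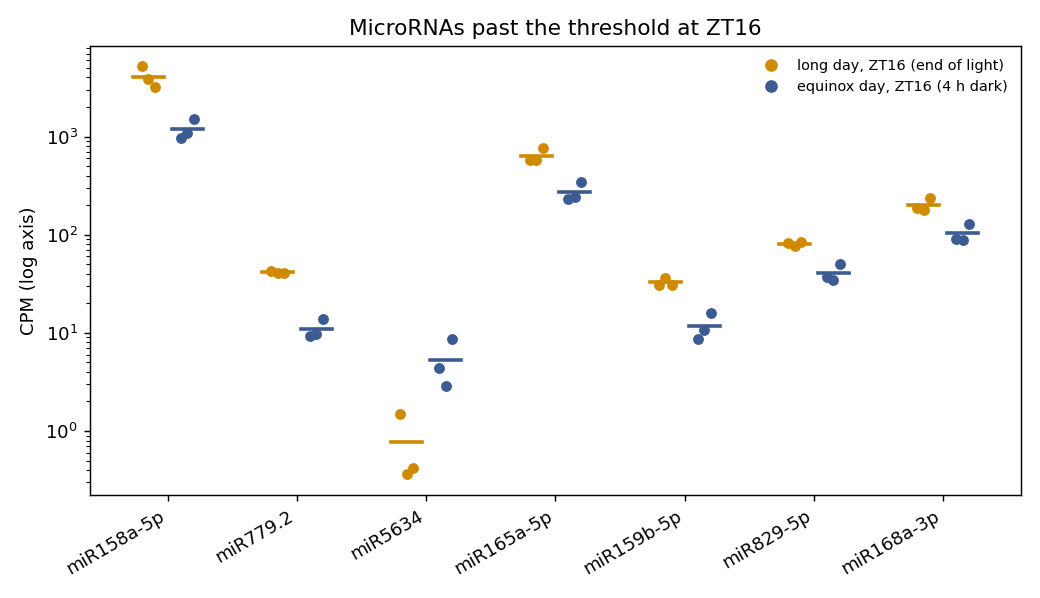
Level in CPM (log axis) of the 7 microRNAs past the threshold in each of the 6 libraries, as points ordered A, B, C, with a bar at the mean of each group. In all 7 the long-day and equinox-day points do not overlap, and miR5634 is the only one with long day below equinox day.

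Those just short of the threshold are given as values. On the higher side they were miR5595a/miR5995b (0.97 ± 0.37, edgeR adjusted p = 0.0673), miR866-3p (1.02 ± 0.41, adjusted p = 0.0816), the copper microRNA miR398a-3p (1.09 ± 0.44, adjusted p = 0.0835) and miR390b-3p (1.06 ± 0.44, adjusted p = 0.0854). The annotation places miR5595a/miR5995b in an exon of AT2G23550, and how reads are divided between miR398a-3p and the near-identical miR398b-3p is not given. On the lower side were miR5654-3p (-0.90 ± 0.36, edgeR adjusted p = 0.0816), which lies in an exon of AT1G32583, miR5637 (-1.73 ± 0.70, adjusted p = 0.0836), miR837-5p (-1.44 ± 0.63, adjusted p = 0.111) and the feature shared by miR166a-3p to miR166g (-0.65 ± 0.31, adjusted p = 0.142). The next on that side were miR170-3p, miR841b-3p, miR159a, miR847 and miR5996, with edgeR adjusted p from 0.176 to 0.211 and overlapping libraries. At an unadjusted p below 0.05 there were 16 microRNAs on the higher side and 5 on the lower.

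Over the day, each of the 6 higher microRNAs reached its highest long-day mean at ZT16 and its highest equinox-day mean at ZT12, in each case the sampled hour at which the lights went off. Having been chosen as high in long day at ZT16, they are favoured to peak there, so this is a description only. Of all tested features 22.3% had their highest long-day mean at ZT16, 11.3% their highest equinox-day mean at ZT12 and 4.56% both, and of the 149 microRNAs 36.9%, 12.1% and 10.1%. Differences between hours of 1 photoperiod were not tested. miR158a-5p went from 2222 ± 1038 CPM at ZT12 to 4084 ± 1010 at ZT16 and 1220 ± 50.0 at ZT20 in long day (SD, n = 3). In equinox day it held 2245 ± 536 at ZT12 and 1189 ± 281 at ZT16. Its peaks were unequal, and its long-day mean at ZT16 was the highest of the 18 groups of the study.

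miR165a-5p had peaks of nearly the same height. It held 642 ± 86.8 CPM in equinox day at ZT12 and 638 ± 107 in long day at ZT16, against 339 ± 68.1 in long day at ZT12 and 272 ± 61.3 in equinox day at ZT16. In short day, 8 h into the dark at ZT16, it held 230 ± 52.8 CPM. The long-day means of miR779.2 were 23.7 ± 3.10 CPM at ZT12, 41.4 ± 0.728 at ZT16 and 14.4 ± 3.34 at ZT20. In equinox day it held 33.0 ± 9.0 at ZT12 and 11.0 ± 2.60 at ZT16, and in short day 10.0 ± 1.49 at ZT16. The long-day excess of miR779.2 was thus seen at an hour when both groups in the dark were low.

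The remaining 4 differed in the shape of the day. miR829-5p held 62.5 ± 15.2 CPM in equinox day at ZT12 and 80.7 ± 4.26 in long day at ZT16. miR168a-3p was highest of the 18 groups in equinox day at ZT12, with 227 ± 51.1 CPM, against 200.1 ± 30.1 in long day at ZT16. miR159b-5p reached 32.7 ± 3.41 CPM in long day at ZT16 and 16.0 ± 3.79 in equinox day at ZT12, and its long-day mean was above that of equinox day at 4 of the other 5 hours. miR5634 had its highest equinox-day mean at ZT16, 5.31 ± 3.00 CPM, and held 6.76 ± 1.30 in short day at that hour.

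**Figure D2:**
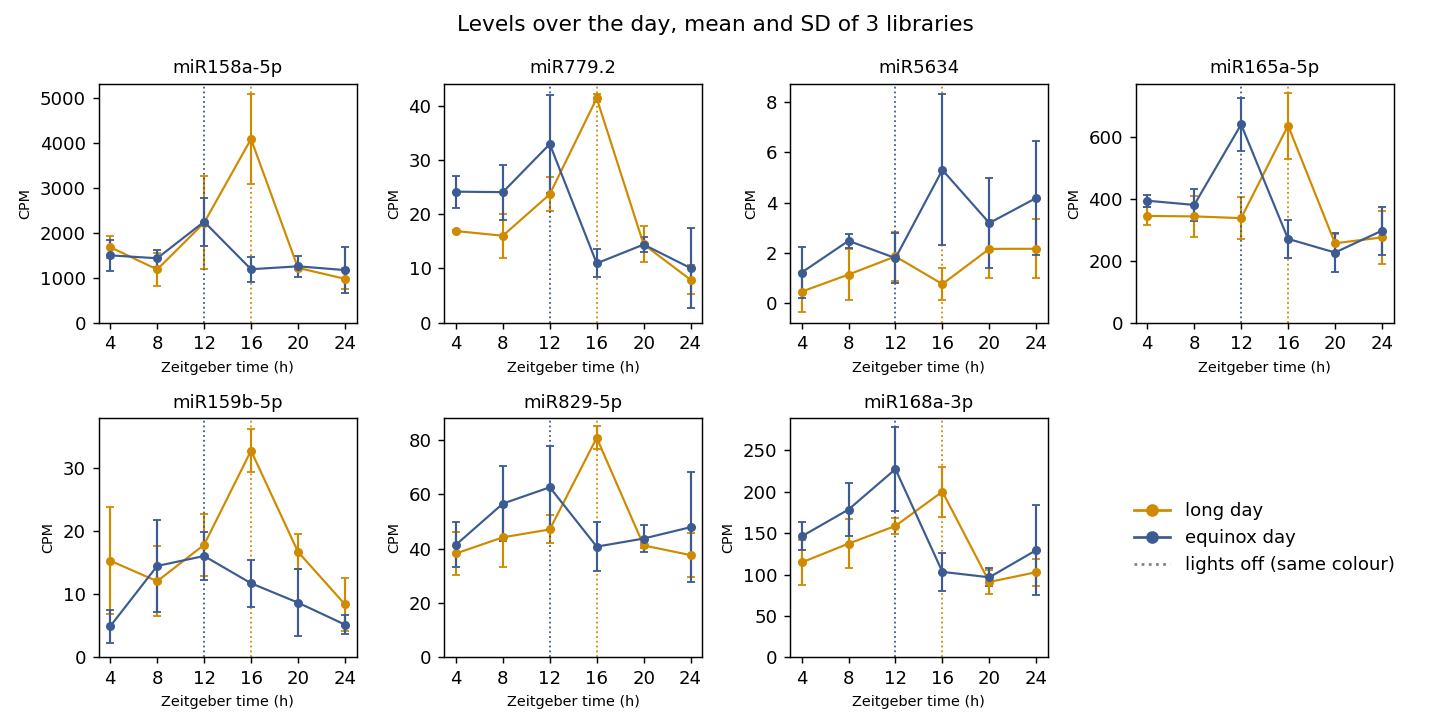
Mean level in CPM with its SD (n = 3) at each Zeitgeber time for the 7 microRNAs, long day and equinox day, with a dotted line in the same colour where the lights went off. The 6 higher microRNAs have their highest long-day mean at ZT16 and their highest equinox-day mean at ZT12.

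Whether the long-day difference at ZT16 departed from that at the other hours was tested with an interaction, the difference at ZT16 minus its mean over the other 5 hours. Of the 149 microRNAs 3 passed (2.01%), all higher, where 1.29% of all tested features did (1.09% higher and 0.192% lower). The median of this departure was 0.28 over all tested microRNAs and -0.08 over all features. Without TMM factors these medians were -0.26 and -0.63. Once genome share entered the model as a covariate they were -0.08 and 0.02, in reverse order. The median microRNA difference was 0.08 at ZT16 itself and -0.52 to 0.19 at the other 5 hours. No direction is therefore given for microRNAs as a class, which was not tested. The 3 microRNAs that passed were miR779.2 (2.29 ± 0.44, edgeR adjusted p = 0.00276), miR158a-5p (1.87 ± 0.41, adjusted p = 0.00860) and miR165a-5p (1.47 ± 0.36, adjusted p = 0.0206). The miR158a-5p call was lost without replicate A of either group and the miR165a-5p call in 5 of 6 such fits, all but that without equinox day replicate C, while miR779.2 passed in all 6. Close behind were miR168a-3p (1.29, edgeR adjusted p = 0.0612) and miR829-5p (1.25, adjusted p = 0.0701), while miR159b-5p had 0.84 (adjusted p = 0.407) and miR5634 had -1.94 (adjusted p = 0.175). At none of the other 5 hours did any of the 7 microRNAs, chosen at ZT16, pass between long day and equinox day, the lowest adjusted p being 0.0684 for miR159b-5p. Other microRNAs did pass at ZT8, 6 of the 149 (4.03%, all lower in long day), beside 13.1% of all features. At ZT4, ZT12, ZT20 and ZT24 0 microRNAs passed.

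The arms of a hairpin were then compared within each library. In a ratio of 2 arms the library total and its scaling cancel, apart from the 0.5 CPM added to each. This comparison was chosen after values had been seen. There were 43 hairpins with both arms tested, which share 35 more abundant features, so the pairs are not independent. Of the 41 less abundant features 4 passed the edgeR test above, all higher in long day (miR158a-5p, miR165a-5p, miR159b-5p and miR168a-3p), and of the 35 more abundant ones 0 did, beside 4.7% of all microRNAs and 15.9% of all features. The difference between these counts was not tested. The share of the less abundant arm had a higher long-day mean on the log ratio in 29 hairpins and a lower one in 14. For 16 hairpins the shares did not overlap between groups (37.2%), 15 of them higher in long day. With limma on the log2 ratio, 11 of 43 passed (25.6%), 9 higher and 2 lower. Of the 16 pairs in which each feature carries 1 name, 3 passed higher and 1 lower (25%). In the other pairs an arm is a feature shared by several loci, so its share is not that of 1 hairpin alone.

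For miR165a, the 5p arm made up 38.2%, 40.0% and 37.4% of both arms in the long-day libraries and 15.8%, 16.6% and 16.3% in those of equinox day. Each group lay within 3 percentage points, far from the other. The log2 ratio was 1.69 ± 0.24 higher in long day (limma adjusted p = 8.88e-07), while the 3p feature, which miR165a and miR165b share, had a log2 fold change of -0.45 ± 0.33. miR158a-5p made up 22.2%, 20.2% and 14.5% of its hairpin in long day and 8.04%, 7.72% and 7.82% in equinox day. The long-day libraries spread more widely, and none came near those of equinox day. The log2 ratio was 1.44 ± 0.25 higher (limma adjusted p = 2.07e-05), with 0.32 ± 0.31 for the guide miR158a-3p.

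For miR396b, whose 5p arm targets the GRF factors of organ size, the 3p arm made up 2.86%, 3.55% and 2.92% in long day and 1.26%, 1.21% and 1.26% in equinox day. The groups were again separate, with a log2 ratio 1.33 ± 0.25 higher (limma adjusted p = 4.18e-05). Its 3p arm did not pass alone (0.84 ± 0.38, edgeR adjusted p = 0.126), and neither did the guide (-0.49 ± 0.36, adjusted p = 0.387). For miR159b the 5p arm made up 2.37%, 2.21% and 1.30% in long day and 0.331%, 0.540% and 0.391% in equinox day, also without overlap. Its log2 ratio was 2.18 ± 0.42 higher (limma adjusted p = 6.80e-05), the guide having a log2 fold change of -0.72 ± 0.41.

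The other hairpins with a higher share of the less abundant arm were miR390b (1.25 ± 0.33, limma adjusted p = 0.00428), miR164b (1.18 ± 0.34, adjusted p = 0.00756), miR166e (1.08 ± 0.32, adjusted p = 0.00916), miR157a (0.71 ± 0.22, adjusted p = 0.0120) and miR166a (0.55 ± 0.20, adjusted p = 0.0391). The miR390 guide triggers trans-acting siRNAs, that of miR164 targets NAC factors and that of miR166 the HD-ZIP III factors. In each of these hairpins, and in miR170, an arm is a feature shared with other loci. For miR157a the less abundant arm in these libraries was the 5p arm, which is known to target the SPL factors. The same 5p feature set against miR157c-3p had a log2 ratio of 0.18 ± 0.21 (limma adjusted p = 0.578), with overlapping shares. The share was lower for miR837 (-2.0 ± 0.57, limma adjusted p = 0.00756) and miR170 (-1.49 ± 0.56, adjusted p = 0.0453), both with a less abundant arm of only a few CPM. Leaving out 1 library ended the call of miR157a (without long day replicate A or equinox day B), miR837 (without long day C or equinox day A) and, in 4 of 6 fits each, miR166a (all but long day A and B) and miR170 (all but replicate A of either group), and of none of the other 7. The miR168a share did not move with its level. It was 40.4%, 43.1% and 45.4% in long day and 44.1%, 40.2% and 36.3% in equinox day, and overlapped, and miR168a-5p had a log2 fold change of 0.74 ± 0.34 (edgeR adjusted p = 0.135).

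**Figure D3:**
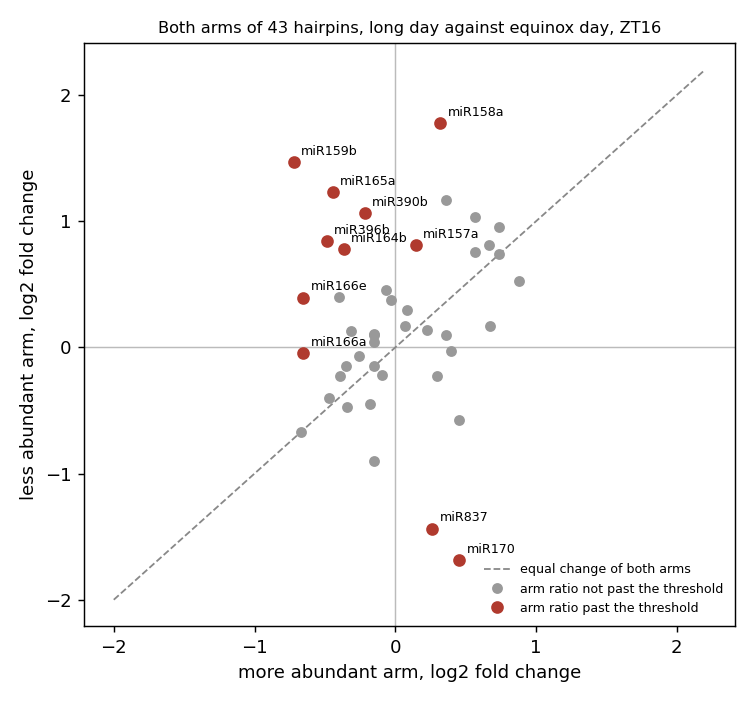
Log2 fold change of the less abundant arm (vertical) against that of the more abundant arm (horizontal), long day against equinox day at ZT16, for 43 hairpins, with a dashed line of equal change. Points above the line have a higher share of the less abundant arm in long day, and the 11 hairpins whose log2 ratio passed in limma are named, 9 above and 2 below the line.

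The shares of miR165a, miR158a and miR396b, chosen at ZT16, also had their highest long-day mean there. For miR165a, the 5p arm made up 23.1% in long day at ZT12, 38.5% at ZT16 and 16.3% at ZT20, and in equinox day 29.7% at ZT12, 16.3% at ZT16 and 13.3% at ZT20. Short day held 14.0% at ZT16. For miR396b the long-day share went from 2.42% at ZT12 to 3.11% at ZT16 and 1.73% at ZT20, with equinox day at 2.05%, 1.24% and 1.17%. In the interaction, the log2 ratio departed from the other hours for 8 of 43 hairpins (18.6%). It was higher for miR165a (1.57), miR159b (1.52), miR164b (1.39), miR158a (1.22), miR396b (0.97), miR166e (0.96) and miR157a (0.82) and lower for miR171a (-1.33), with limma adjusted p from 2.71e-05 to 0.0499.

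**Figure D4:**
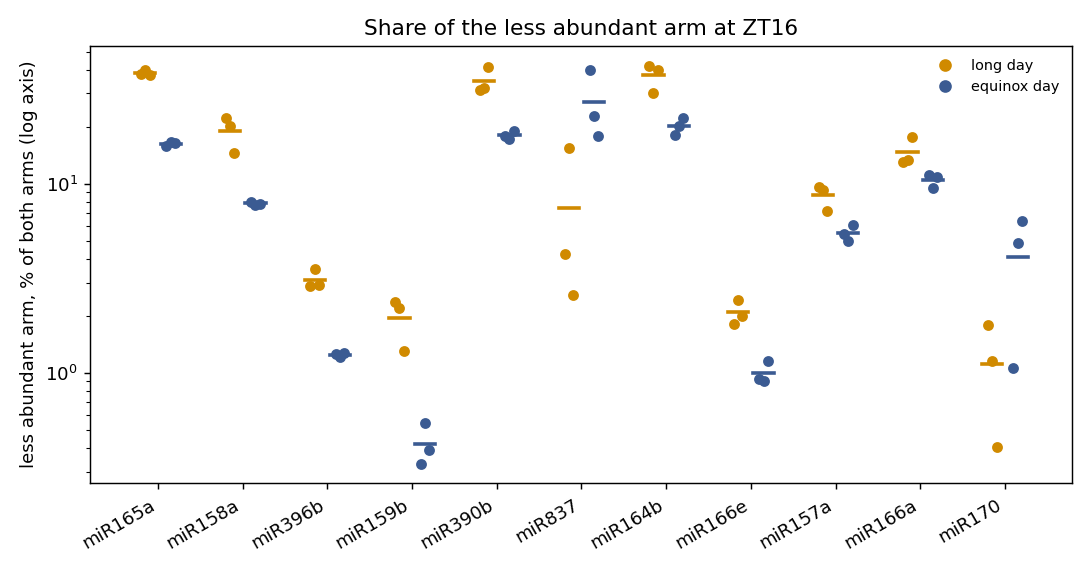
Share of the less abundant arm in the counts of both arms (percent, log axis) in each of the 6 libraries, for the 11 hairpins whose log2 ratio passed, as points with a bar at the group mean. The 2 groups are separate for all but miR170, and for miR165a they sit at 37.4% to 40.0% and 15.8% to 16.6%.

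The counts by function are read against the shares that passed over all features (15.9%) and over all microRNAs (4.7%), at which a short list may hold no call, so they set no list apart. In the developmental lists, 0 of 12 features of miR156 and miR157 passed, 0 of 3 of miR172, 1 of 6 of miR159 and miR319 (miR159b-5p), 0 of 14 of auxin response and 1 of 14 of meristem and organ patterning (miR165a-5p). The median log2 fold changes of these 5 lists were 0.10, 0.36, -0.49, 0.00 and -0.19, beside -0.09 over all features. The juvenile-phase feature of miR156a-5p to miR156f-5p held 5062 ± 536 CPM in long day and 5629 ± 2319 in equinox day (-0.15 ± 0.37, edgeR adjusted p = 0.827). miR157a-3p/miR157b-3p had a log2 fold change of 0.14 ± 0.38, and the miR172 features of the AP2 targets, miR172a/miR172b-3p and miR172b-5p/miR172e-5p, had 1.17 ± 0.74 and 0.36 ± 0.60. The libraries of the 2 groups overlapped for each of these.

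The MYB-targeting guides had values on the lower side, with miR159a at 1700.2 ± 386 against 2873 ± 1246 CPM (-0.76 ± 0.39, edgeR adjusted p = 0.189) and miR159b-3p at 1741 ± 553 against 2870 ± 1059 CPM (adjusted p = 0.230). Among the patterning guides, the miR166 feature held 3141 ± 842 against 4942 ± 838 CPM without overlap, and miR396b-5p 2049 ± 430 against 2875 ± 934 CPM with overlap. For the auxin list, miR167a-5p/miR167b, which targets ARF6 and ARF8, had a log2 fold change of -0.31 ± 0.48, and miR167c-3p had -0.47 ± 0.38. Of miR169 to miR171, 0 of 7 passed. miR169f-3p had no overlap (165 ± 14.6 against 98.7 ± 29.6 CPM, 0.74 ± 0.38, edgeR adjusted p = 0.183), and miR170-5p/miR171a-5p had 0.46 ± 0.34. None of these passed at this depth, which does not show equal levels.

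In the nutrient lists 0 of 6 copper features, 0 of 2 sulfate and 0 of 2 phosphate features passed, again beside 4.7% of all microRNAs. All 6 copper features had a log2 fold change above 0 (median 0.48), but without TMM factors 3 of the 6 were below 0. miR398b-3p/miR398c-3p, which targets superoxide dismutases, held 4911 ± 1231 against 2670 ± 1049 CPM (0.88 ± 0.49, edgeR adjusted p = 0.219), and miR408-3p, which targets copper proteins, 620.1 ± 252 against 586 ± 220.1 CPM. Both overlapped. miR395b/miR395c/miR395f (-0.17 ± 0.42) and miR395a/miR395d/miR395e (0.03 ± 0.45), which target sulfate assimilation, and miR399b/miR399c-3p (0.58 ± 0.39) and miR827 (0.62 ± 0.54) of the phosphate response overlapped too.

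Of the 6 features of the light-linked list, which are families named with light responses, 0 passed. All 6 had a log2 fold change above 0 (median 0.28), but all 6 were below 0 without TMM factors, so no direction is given. Its members miR163 (0.27 ± 0.33) and miR408-3p (0.08 ± 0.47) overlapped between groups. In the list of small RNA pathway feedback 1 of 7 passed (miR168a-3p). There miR162a-3p/miR162b-3p, which targets DCL1, had 0.30 ± 0.36 and miR403-3p, which targets AGO2, had -0.03 ± 0.32. Of the triggers of secondary siRNAs 0 of 7 passed, with miR161.1 at 0.07 ± 0.33 and miR173-5p at -0.22 ± 0.50.

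Of 44 features of young, mostly Arabidopsis-lineage microRNAs, 3 passed, near the 4.7% of all microRNAs and all higher (miR158a-5p, miR779.2 and miR829-5p), with a median log2 fold change of 0.13. The guide miR158a-3p held 17422 ± 2021 against 13965 ± 3426 CPM (0.32 ± 0.31). The most abundant microRNA of the 6 libraries was miR161.1, at 30179 ± 8618 and 28762 ± 2225 CPM, and it was followed by miR158a-3p and miR162a-3p/miR162b-3p. The 10 most abundant also held the miR156, miR157a-3p, miR166 and miR398b-3p features, miR396b-5p, miR5026 (4614 ± 753 against 4287 ± 779 CPM) and miR158a-5p. Of these 10, miR158a-5p was the one that passed.

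Trex features, numbered names that the sources used here do not explain, made up 8720 of the 8869 tested features and 1402 of the 1409 that passed. Of 8720 tested, 671 were higher and 731 lower in long day, with median log2 fold changes of 2.19 and -2.03. Of these, 403 of the higher and 385 of the lower ones were past 4-fold, as was 1 microRNA (miR5634). The split depended on scaling. Over all features it was 677 higher and 732 lower, but 399 and 1249 without TMM factors, which moved the median log2 fold change of all features by -0.48. It was 844 and 459 with totals that include the genome entry, which moved that median by 0.26.

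The 2 higher features of smallest p differed in their day. trex23954 held 62.6, 56.2 and 63.8 CPM in long day and 5.43, 6.29 and 5.65 CPM in equinox day, with no overlap (3.38 ± 0.49, edgeR adjusted p = 2.90e-05). Its means were 23.7 to 24.4 CPM at the 3 earlier hours of long day and 23.2 to 37.4 CPM at the 3 light hours of equinox day. In the dark they were 5.05 to 6.82 CPM in both photoperiods, and in short day 29.7 and 30.9 CPM in light and at most 5.81 CPM in the dark. In all 3 photoperiods its means were thus higher at the hours sampled up to lights off than in the dark. The interaction also called it (3.64 ± 0.52, edgeR adjusted p = 7.12e-05).

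trex138032 held 90.5, 83.4 and 67.6 CPM against 2.71, 2.90 and 1.88 CPM at ZT16 (5.0 ± 0.66, edgeR adjusted p = 6.82e-06). Its long-day mean was above that of equinox day at all 6 hours, with equinox-day means of 2.5 to 7.70 CPM. From ZT4 to ZT20 the long-day means were 42.2 to 80.5 CPM and the libraries did not overlap. At ZT24 they did, at 3.95 to 30.7 CPM in long day (mean 13.4) and 2.69 to 8.93 CPM in equinox day. The interaction did not call trex138032 (2.03 ± 0.67, edgeR adjusted p = 0.0938). On the lower side, trex25818 had 0, 1 and 2 counts in long day and 42, 35 and 36 in equinox day, a summed ratio of 44.6 (95% exact binomial interval 14.9 to 220). The library with 0 counts allows up to 1.13 CPM. From ZT4 to ZT20 the means of trex25818 were 0.403 to 1.69 CPM in long day and 13.8 to 54.6 CPM in equinox day. At ZT24 they were 20.8 and 44.3 CPM, and short-day means were 0.820 to 7.71 CPM. Its interaction did not pass (-1.65 ± 1.02, edgeR adjusted p = 0.394). trex8047 held 1.89, 1.09 and 4.23 CPM against 22.8, 16.9 and 21.1 CPM, a summed ratio of 8.76 (interval 5.33 to 15.2), and passed the interaction (-2.71 ± 0.59, edgeR adjusted p = 0.00857). The groups did not overlap for any of these.

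ZT16 had the highest count of features past the threshold among the 6 hours, with 1409 (15.9%). It was followed by ZT8 with 1160 (13.1%), when both photoperiods were in light, then ZT4 with 331 (3.73%), ZT20 with 142 (1.6%), ZT12 with 94 (1.06%) and ZT24 with 0 by edgeR (596 at an unadjusted p below 0.05). The count at ZT16 fell to 543 to 886 when any 1 of its 6 libraries was left out. The share of the genome entry was separate between the photoperiods at 3 hours. It was lower in long day at ZT16 and at ZT8 (80.8% to 84.7% against 87.4% to 89.1%) and higher at ZT20 (88.5% to 90.2% against 86.8% to 87.6%), while at ZT4, ZT12 and ZT24 the libraries overlapped. With this share as a covariate 357 features and 3 microRNAs passed at ZT16. The microRNA calls lost in that fit were miR165a-5p, miR159b-5p, miR829-5p and miR168a-3p, and in the interaction miR165a-5p and miR158a-5p.

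The lower features at ZT16 were largely also low in long day at ZT8, in libraries the ZT16 comparison does not use. Of the 732, 711 (97.1%) had a lower long-day mean at ZT8, where 47.8% of all tested features did, and 413 passed there. At ZT24 the share was 18.4%, where 48% of all features did. Of the 677 higher ones, 63.1% to 75.8% had a higher long-day mean at each of the other 5 hours, where 48.4% to 52.4% of all features did. Of the 6 higher microRNAs, 2 had a higher long-day mean at ZT4, 0 at ZT8, 1 at ZT12, 3 at ZT20 and 1 at ZT24, where 61.1%, 15.4%, 43%, 24.8% and 30.2% of all tested microRNAs did.

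**Figure D5:**
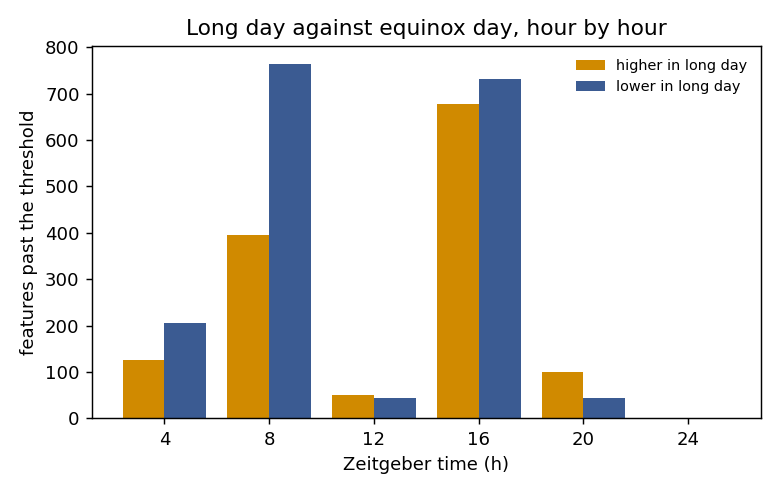
Number of features past the threshold between long day and equinox day at each Zeitgeber time (h), higher and lower in long day, from 8869 tested. ZT16 has 677 higher and 732 lower features, ZT8 has 395 and 765, and ZT24 has 0.

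By the interaction, 114 features passed, 97 higher and 17 lower, a split that was 57 and 170 without TMM factors and 248 and 374 with the 36 libraries of long day and equinox day alone. All 114 had passed at ZT16 with the same sign, and they were 8.09% of the 1409. The interaction contains the ZT16 difference itself, which favours such overlap, so the overlap is a description only. By this test most features that differed at ZT16 were not shown to differ from the other hours. The count was 48 to 75 when any 1 of the 6 libraries was left out.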

How the data were processed

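The authors deposited whole-number read counts per feature and library. Per the submitters' processing notes, cutadapt 3.4, Bowtie2 2.5.1 and SAMtools were used, while settings, genome build and counting rule were not given in the sources used here. Nor was the division of reads within near-identical families (miR172, miR398, miR165 and miR166, miR156 and miR157). The labels' protocols state gel selection of RNA up to 40 nucleotides. The genome entry, 79.6% to 92.9% of a library, stayed out of totals and tests.

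The counts of all 54 libraries were fitted in edgeR 4.0.16 (R 4.3.3) with 18 group coefficients, TMM scaling and filterByExpr (minimum count 10, minimum total 15), which kept 8869 of 223651 features. Quasi-likelihood tests were adjusted by Benjamini-Hochberg over these, with a threshold of 0.05. CPM values use TMM-scaled totals. Arm ratios were fitted in limma 3.58.1 as log2 ratios after adding 0.5 CPM, adjusted over 43 hairpins. Both steps were run on simulated data with known changes. The simulated arm pairs were independent and abundant and had no counting noise, so that run does not cover shared or rare arms.

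Named microRNAs were those past the threshold, those of smallest p up to 10 per direction, the 2 most abundant of each of 13 lists, the 10 most abundant, those past the interaction and all tested forms of miR779 and miR829. Hairpins outside this rule were named after their values were seen. Members and lists were chosen with earlier results of these data known. Alternatives were other scalings, filters, sets of libraries, a replicate block, a covariate, DESeq2 1.42.0 and leaving out each library. Correlations of deviations between libraries of the same letter across groups were 0.21, -0.07 and 0.12, against -0.20 to 0.13 for different letters. So few values cannot tell whether the letters pair libraries.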

Additional observations from a re-analysis of the deposited data

Results flagged for a closer look

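For these results the difference between long day and equinox day at ZT16 departed from its mean over the other 5 hours in a test of that departure (log2 scale, 3 libraries per group and hour). By edgeR they were miR779.2 (2.29), miR158a-5p (1.87) and miR165a-5p (1.47). By limma on the log2 arm ratio they were miR165a (1.57), miR159b (1.52), miR164b (1.39), miR158a (1.22), miR396b (0.97), miR166e (0.96), miR157a (0.82) and miR171a (-1.33). The miR171a ratio did not pass at ZT16 itself (-0.96 ± 0.38, limma adjusted p = 0.0519).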

How the results depend on the processing

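Of the named microRNAs and arm ratios past the threshold, none changed sign in any alternative that gave a value. Single trex features and the interactions of arm ratios were not followed through the alternatives. The count of features past the threshold (1409) was 313 with no filter on low counts, 357 with the genome share as covariate and 543 to 886 without 1 library. That of microRNAs (7) was 13 without TMM factors, 1 with no filter, 3 with a filter of 1 CPM in 3 libraries, 19 with the 6 libraries alone, 22 with microRNAs fitted alone, 3 with the covariate, 14 with DESeq2 and 3 to 4 without 1 library. The interaction count (114) was 185 with DESeq2 size factors, 227 without TMM factors, 13 with no filter, 48 with the CPM filter, 622 with the 36 libraries of both photoperiods, 41 with the covariate, 363 with DESeq2 and 48 to 75 without 1 library. Its microRNAs (3) were 6 with DESeq2 size factors, 0 in edgeR with no filter (18 at an unadjusted p below 0.05), 7 with the 36 libraries, 1 with the covariate, 10 with microRNAs alone, 10 with DESeq2 and 1 to 3 without 1 library. Arm ratios, whose alternatives were chosen after seeing the data, gave 8 to 12 hairpins against 11. The genome share as covariate was not among these alternatives, so this range is not a like comparison with the others. The cause of these moves was not tested.

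With a replicate block the counts were 1387 features and 7 microRNAs over 54 libraries, 120 and 3 in the interaction, 12 hairpins, and 2031 and 23 with the 6 libraries alone. miR158a-5p passed in all 19 alternatives and miR779.2 in all but that with no filter (adjusted p = 0.148). miR165a-5p was lost in 4, among them without long day replicate C and with the covariate. In the interaction miR165a-5p was lost in 10 of 17. miR159b-5p, miR829-5p and miR168a-3p were each lost in 10 of 19. Without a library, the share of microRNA counts differed by -3.56 to -1.39 points and the genome share by -8.01 to -5.80. Depth limits features of a few counts, such as miR5634.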
